A study of Mus musculus with 14 samples.

Results

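The immunoproteasome and peptide loading genes are 10 genes that make peptides and fit them into class I molecules of the major histocompatibility complex: Psmb8, Psmb9, Psmb10, Psme1, Psme2, Erap1, Tap1, Tap2, Tapbp and Nlrc5. They were taken by symbol from the deposited table of 55359 genes, where each of the 10 matched 1 row, and all 10 were among the 16918 genes with enough counts to be tested. RNA was sequenced from the cortex of both hemispheres of mice in 3 groups: 4 sham samples, 5 samples taken 2 d and 5 taken 7 d after cerebral venous sinus thrombosis (CVST), a clot in the sinuses that drain blood from the brain. The labels give no strain, genotype, sex or age, no collection time for sham, and no word on whether each numbered sample is a separate mouse, so p-values measure the spread between these samples. Gene counts summed to 14.7 to 20.8 M (M for mega) per sample.

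Cells cut their own proteins in the proteasome, a barrel whose standard catalytic subunits are encoded by Psmb5, Psmb6 and Psmb7. Interferon makes many cells swap these for Psmb8, Psmb9 and Psmb10, and Psme1 and Psme2 encode the cap (PA28) that opens the barrel. Peptides then enter the endoplasmic reticulum through the transporter of Tap1 and Tap2, are trimmed by the aminopeptidase Erap1 and are loaded onto class I molecules with the help of tapasin (Tapbp), while Nlrc5 is the transactivator of class I genes. In healthy brain tissue neurons are known for low class I expression, and microglia, endothelium and invading leukocytes for more of it.

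Before the levels, the promoters are shown, because several of these genes are textbook targets of interferon regulatory factors (IRF) and STAT proteins and are neighbours in the genome. RefSeq places Psmb9, Tap1, Psmb8 and Tap2 as consecutive protein-coding genes on chromosome 17, between H2-DMb1 and H2-Ob of the class II region, and only Emc9 lies between Psme1 and Psme2 on chromosome 14. RefSeq promoter windows of build GRCm38.p6 (250 bases before the start site to 50 bases from it) were at hand for 8 of the 10 genes, and none for Tap2 or Nlrc5. Each was searched on both strands for the IRF repeat GAAANNGAA, for the STAT site TTCNNNGAA, which is its own reverse complement, and for the NF-kB consensus of 10 bases. The IRF repeat stood in 8.56% of all 32851 windows of this length, the STAT site in 8.30% and the NF-kB consensus in 8.46%. Among the 8 genes the IRF repeat was found in Erap1 and Psme1, the STAT site in Psmb8 and the NF-kB consensus in none. The 3 windows with a match are printed with the match in capitals: Erap1 (chr13:74639603-74639902, plus strand) with 2 overlapping IRF repeats on the opposite strand, starting 9 and 3 bases before the start site, Psme1 (chr14:55578244-55578543, plus strand) with 1 just after it, and Psmb8 (chr17:34197945-34198244, plus strand) with the STAT site starting 97 bases before it. The Tap1 window (chr17:34187306-34187605, plus strand) is added because Psmb9 starts 226 bases away in the opposite direction, so that the windows of the pair share 275 bases.
Erap1: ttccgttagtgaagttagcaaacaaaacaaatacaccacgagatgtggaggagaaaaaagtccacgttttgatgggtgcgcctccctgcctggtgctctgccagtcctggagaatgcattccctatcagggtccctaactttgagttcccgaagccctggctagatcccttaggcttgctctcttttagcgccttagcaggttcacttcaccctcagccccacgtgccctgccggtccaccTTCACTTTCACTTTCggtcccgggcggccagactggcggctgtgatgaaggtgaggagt
Psme1: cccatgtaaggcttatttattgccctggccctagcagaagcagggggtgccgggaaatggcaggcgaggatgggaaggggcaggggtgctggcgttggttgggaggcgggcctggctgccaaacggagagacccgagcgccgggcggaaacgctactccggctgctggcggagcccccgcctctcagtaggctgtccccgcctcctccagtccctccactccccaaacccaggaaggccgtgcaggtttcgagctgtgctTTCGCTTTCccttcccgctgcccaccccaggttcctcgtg
Psmb8: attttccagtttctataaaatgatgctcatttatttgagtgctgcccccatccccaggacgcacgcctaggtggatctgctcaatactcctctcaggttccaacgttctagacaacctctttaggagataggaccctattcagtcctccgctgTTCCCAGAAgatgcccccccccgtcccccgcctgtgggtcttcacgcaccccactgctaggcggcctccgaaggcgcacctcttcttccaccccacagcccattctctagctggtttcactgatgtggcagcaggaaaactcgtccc
Tap1: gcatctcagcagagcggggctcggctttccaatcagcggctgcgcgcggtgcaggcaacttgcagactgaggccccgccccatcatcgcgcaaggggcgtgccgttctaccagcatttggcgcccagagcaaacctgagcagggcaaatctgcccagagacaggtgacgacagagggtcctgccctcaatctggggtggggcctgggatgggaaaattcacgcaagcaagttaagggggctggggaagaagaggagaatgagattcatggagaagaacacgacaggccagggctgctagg
A match of letters is a description, and no match in the other windows says only that these letters are not there.

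Across the group, 4 genes were higher at 2 d than in sham and 7 at 7 d, and none was lower at either time. Psmb8, Tap1, Erap1 and Nlrc5 rose at both times, and Psmb9, Tap2 and Tapbp rose at 7 d. Psmb10, Psme1 and Psme2 passed the test at neither time. These calls are edgeR's quasi-likelihood test at an adjusted p under 0.05 over all genes tested. The background was 3.95% of all genes called at 2 d (2.98% higher) and 4.44% at 7 d (3.61% higher). The median log2 fold change of the 10 genes was 0.74 at 2 d (0.13 to 2.13) and 0.79 at 7 d (0.00 to 2.76), against -0.01 over all genes tested at both times. The 2 comparisons share the sham samples. At an unadjusted p under 0.05, 8 of the 10 genes differed at 2 d and 7 at 7 d, beside 21.7% and 19.6% of all genes tested. The sham and CVST samples did not overlap for 5 genes at 2 d (Psmb8, Tap1, Tap2, Erap1, Nlrc5) and for 4 at 7 d (Psmb8, Tap1, Erap1, Nlrc5), where 5.65% and 5.80% of all genes were higher without overlap. The counts rest on few samples, as do those of all genes. With sham 2, 3 or 4 left out none of the 10 genes was called at 2 d, and 1, 2 and 1 were called at 7 d. In these fits 97, 76 and 108 of all genes were called at 2 d, in place of 669. At 7 d 181, 119 and 148 were called, in place of 752. Leaving out sham 1, CVST 2 d sample 1, 2, 3 or 4, or CVST 7 d sample 1 left 1 call at 2 d. In that order, 277, 261, 247, 324, 315 and 517 of all genes were then called. Leaving out CVST 7 d sample 3 left 2 calls at 2 d (511 of all genes). At 7 d, leaving out CVST 7 d sample 4 left 4 (279 of all genes).

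A pair of samples bears on every comparison. On the first principal component of all genes, CVST 2 d sample 5 (-26.7) and CVST 7 d sample 2 (-26.9) lay beside sham 1 (-27.3). The other sham samples lay further out, at -48.2 to -47.7. The 2 CVST samples were also the lowest of their groups here. The median log2 level of the 10 genes relative to sham was 0.37 in CVST 2 d sample 5, against 0.64 to 1.02 in the other 2 d samples. In CVST 7 d sample 2 it was 0.13, against 0.70 to 1.15 in the other 7 d samples. Without these 2 samples 6 genes were called at 2 d, Psmb9 (adjusted p = 0.00877, edgeR) and Tap2 (0.0099) being added, and the same number as before, 7, at 7 d. Of all 16792 genes then tested 12.8% were called at 2 d and 7.88% at 7 d, 2146 and 1324 genes in place of 669 and 752, so the added calls are no result about the 10 genes.

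**Figure D1:**
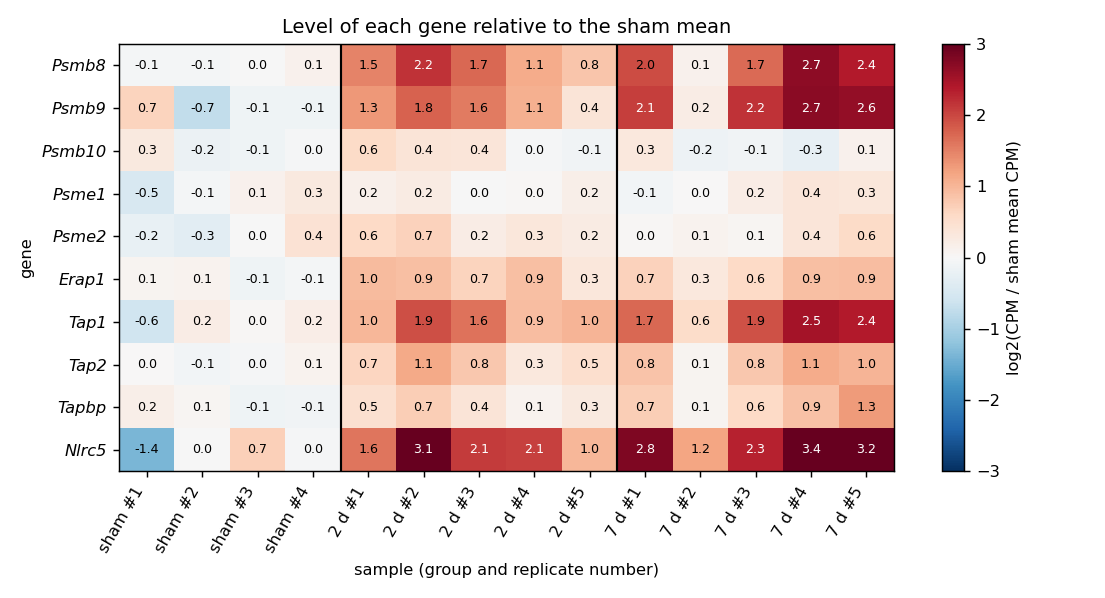
Log2 of each gene's CPM over its sham mean (colour and printed value, log2 scale), with genes as rows and the 14 samples as columns, black lines parting the groups. The rows of Psmb8, Psmb9, Tap1 and Nlrc5 carry the darkest colours, Psmb10 and Psme1 stay near 0 in every group, and CVST 7 d sample 2 is pale in all rows but Nlrc5 and Tap1.

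Of the 3 catalytic subunits of the immunoproteasome, Psmb8 rose at both times, Psmb9 at 7 d and Psmb10 at neither. Psmb8 (ENSMUSG00000024338), the immunoproteasome's chymotrypsin-like subunit LMP7, measured 2.00, 2.00, 2.05 and 2.26 CPM (counts relative to the TMM-adjusted library size) in sham. It measured 5.86, 9.33, 6.87, 4.51 and 3.71 CPM at 2 d, and 8.09, 2.28, 6.76, 13.3 and 10.9 CPM at 7 d. The sham samples were nearly equal, and every CVST sample was above them, CVST 7 d sample 2 only just. Mean levels were 2.08 ± 0.126 CPM (SD, n = 4) in sham, 6.06 ± 2.20 CPM (SD, n = 5) at 2 d and 8.27 ± 4.21 CPM (SD, n = 5) at 7 d. The log2 fold change was 1.54 ± 0.40 (SE, edgeR adjusted p = 0.0462) at 2 d and 1.99 ± 0.40 (adjusted p = 0.0170) at 7 d. The 2 d call of Psmb8 lay close to the threshold and held in 4 of the 14 fits that left out 1 sample (edgeR adjusted p = 0.0103 to 0.133). It ended without any 1 of the sham samples, CVST 2 d sample 1, 2, 3 or 4, or CVST 7 d sample 1 or 3. The 7 d calls of Psmb8 and Psmb9 ended without sham 2, 3 or 4.

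Psmb9 (ENSMUSG00000096727), the subunit LMP2 that takes the place of Psmb6, was low in sham at 1.12, 0.424, 0.651 and 0.647 CPM, or 7 to 19 counts. At 2 d it measured 1.75, 2.44, 2.09, 1.49 and 0.926 CPM, and at 7 d 3, 0.824, 3.21, 4.63 and 4.41 CPM. In both CVST groups 4 of 5 samples were above the highest sham sample, and the exceptions were the 2 samples that lay beside sham 1. The log2 fold change was 1.29 ± 0.45 (SE, edgeR adjusted p = 0.119) at 2 d and 2.17 ± 0.45 (adjusted p = 0.0177) at 7 d. In the deposited table the rows of Psmb9 and Psme1 each join an assembled locus to the Ensembl gene. Psmb9 and Tap1 also overlap on opposite strands in GENCODE M21, and strand-specific counting is not stated, so reads of the overlap cannot be told apart.

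Psmb10 (ENSMUSG00000031897), the subunit MECL-1 that takes the place of Psmb7, was already abundant in sham, at 16.8 to 23.1 CPM. It spanned 17.7 to 28.3 CPM at 2 d and 15.9 to 23.8 CPM at 7 d, ranges that overlap throughout. Its means were 19 ± 2.81, 22.8 ± 4.52 and 19 ± 3.19 CPM (SD, n = 4, 5 and 5), with log2 fold changes of 0.26 ± 0.16 (SE, edgeR adjusted p = 0.360) at 2 d and 0.00 ± 0.16 (adjusted p = 0.995) at 7 d. The 3 immunosubunits started from different levels, and the pair with the lower sham levels, Psmb8 and Psmb9, passed the test at 7 d. Per length, on the deposited FPKM scale, the sham means were 31.2 FPKM for Psmb10, 2.60 for Psmb8 and 0.79 for Psmb9, and at 7 d they were 31.6, 10.5 and 3.11 FPKM.

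**Figure D2:**
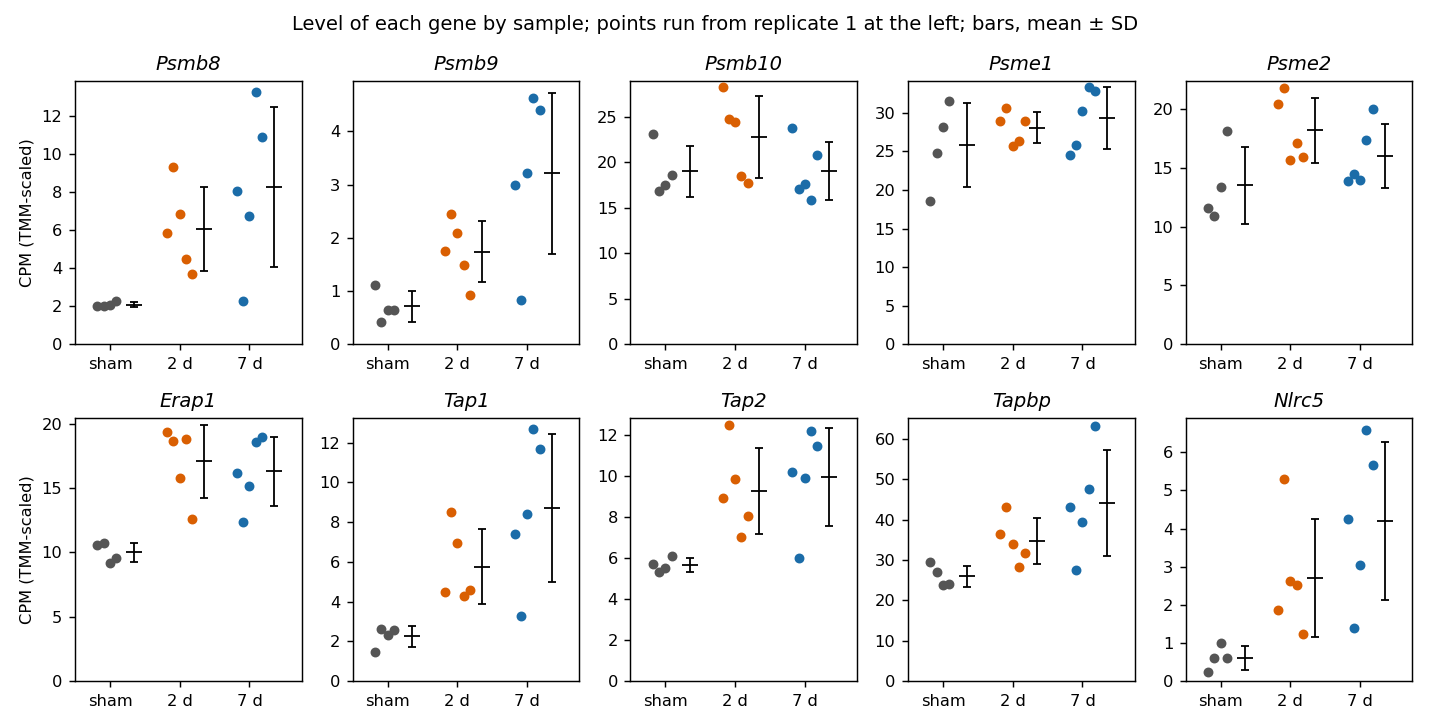
CPM of each of the 10 genes (vertical axis from 0, TMM-scaled) in sham, 2 d and 7 d samples; points are samples in order of replicate number and bars the mean ± SD. Psmb8 lies between 2.00 and 2.26 CPM in sham and reaches 13.3 CPM at 7 d. Sham overlaps with both CVST groups for Psmb9, Psmb10, Psme1, Psme2 and Tapbp, and with the 7 d group for Tap2.

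How far an immunosubunit stood against the standard subunit it replaces was taken as a ratio of FPKM within each sample. Psmb5, Psmb6 and Psmb7 themselves passed edgeR's test in no comparison (2 at an unadjusted p under 0.05, both lower at 7 d than at 2 d; 0 called by DESeq2, voom or limma on FPKM), with log2 fold changes of 0.06 to 0.17 at 2 d and -0.18 to -0.01 at 7 d. For Psmb8 over Psmb5 the ratio was 0.0244, 0.0344, 0.0319 and 0.0318 in sham. It was 0.0728, 0.123, 0.0940, 0.0635 and 0.0516 at 2 d and 0.129, 0.0397, 0.103, 0.221 and 0.185 at 7 d. All CVST samples were above all sham samples, and the highest sample held 18.1% of the pair's FPKM as Psmb8, against 2.38% to 3.33% in sham. The geometric mean rose from 0.0304 to 0.0772 and 0.117, log2 differences of 1.35 (SD 0.22 in sham and 0.49 at 2 d) and 1.94 (SD 0.97 at 7 d). The 2-sided exact permutation p was 0.00794 at 2 d, the smallest that 4 against 5 samples allow, and 0.0159 at 7 d, and both became 0.0714 after Benjamini-Hochberg adjustment over the 9 ratio tests, which misses 0.05.

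For Psmb9 over Psmb6 the ratio spanned 0.00532 to 0.0113 in sham, 0.00878 to 0.0229 at 2 d and 0.00545 to 0.0477 at 7 d, and the groups overlapped. The log2 difference was 1.09 at 2 d (exact permutation p = 0.0317, adjusted 0.0952) and 1.69 at 7 d (p = 0.0476, adjusted 0.107). The FPKM per CPM of Psmb9 differed up to 2.04 times between samples, and from CPM the differences were 1.14 and 2.05 (exact permutation, adjusted p = 0.0893 and 0.0714). For Psmb10 over Psmb7 it was 0.04 (exact permutation p = 0.873) and 0.11 (p = 0.587), with ratios of 0.251 to 0.436 in sham and 0.214 to 0.408 in CVST samples. Between 2 d and 7 d none of the 3 ratios passed (exact permutation p = 0.246, 0.357 and 0.778). CVST 7 d sample 2 had the lowest 7 d ratio for the first 2 pairs. Leaving out this lowest sample raises the 7 d differences by construction, to 2.33 and 2.21, and all 6 differences of the 2 pairs then had an adjusted p of 0.0476 by the exact permutation test. The 2 d differences and their unadjusted p were untouched by this, only the adjustment over the 9 tests moved, so no call is read from it.

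**Figure D3:**
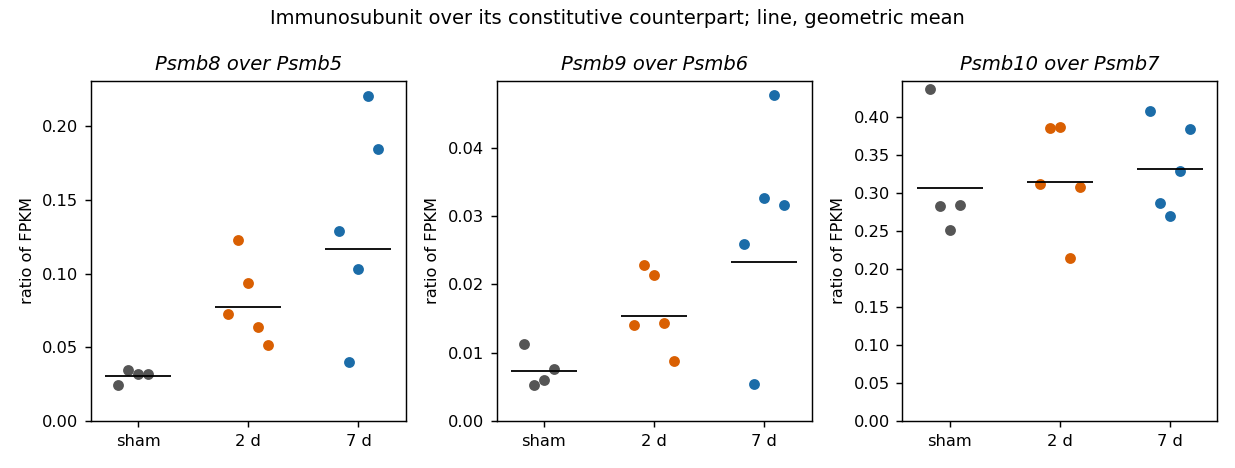
Ratio of FPKM of an immunosubunit to its standard counterpart (vertical axis from 0) in each sample of the 3 groups; the line is the geometric mean. For Psmb8 over Psmb5 the sham samples lie at 0.0244 to 0.0344 and the 7 d samples at 0.0397 to 0.221. For Psmb9 over Psmb6 and Psmb10 over Psmb7 the groups overlap.

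Neither PA28 cap gene passed the test. Psme1 (ENSMUSG00000022216), the alpha subunit, had means of 25.8 ± 5.47, 28.1 ± 2.01 and 29.3 ± 4.04 CPM (SD, n = 4, 5 and 5), and its log2 fold changes were 0.13 ± 0.14 (SE, edgeR adjusted p = 0.634) at 2 d and 0.19 ± 0.14 (adjusted p = 0.487) at 7 d. Psme2 (ENSMUSG00000079197), the beta subunit, measured 11.6, 10.9, 13.4 and 18.1 CPM in sham, 15.7 to 21.8 CPM at 2 d and 13.9 to 20 CPM at 7 d. The highest sham sample lay inside both CVST ranges, and the log2 fold changes were 0.43 ± 0.17 (SE, edgeR adjusted p = 0.151) and 0.24 ± 0.17 (adjusted p = 0.455). The value of Psme2 is uncertain because of a near-identical copy, Psme2b, which had 0 to 13 counts per sample and was too low to test.

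Erap1 (ENSMUSG00000021583), which trims peptides to the length that class I molecules hold, had the smallest standard error among the called genes. It measured 10.6, 10.7, 9.16 and 9.54 CPM in sham, 19.4, 18.7, 15.8, 18.8 and 12.6 CPM at 2 d, and 16.2, 12.4, 15.2, 18.6 and 19 CPM at 7 d. All CVST samples were above all sham samples, and the lowest at each time was the sample that lay beside sham 1. The log2 fold change was 0.77 ± 0.15 (SE, edgeR adjusted p = 0.0154) at 2 d and 0.70 ± 0.15 (adjusted p = 0.0188) at 7 d, and the calls ended without sham 2, 3 or 4 and, at 7 d, also without CVST 7 d sample 4. On the deposited FPKM the sham samples spanned 1.76 to 3.56 and overlapped with both CVST groups, and limma on these values gave 0.52 (adjusted p = 0.219) at 2 d and 0.24 (adjusted p = 0.646) at 7 d, where the alternatives ranged from an adjusted p of 9.32e-05 to 0.219 and from 0.000459 to 0.646. The FPKM per CPM of Erap1 differed up to 2.12 times between samples, so FPKM does not follow the counts of this gene. Erap1 overlaps on the opposite strand with Cast, the gene of calpastatin, which was also higher at 2 d (0.71 ± 0.18, adjusted p = 0.0446, edgeR) and not called at 7 d (0.48 ± 0.18, adjusted p = 0.148). Without strand, reads of the overlap cannot be told apart.

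Both transporter genes rose at 7 d, and Tap1 also at 2 d. Tap1 (ENSMUSG00000037321) measured 1.47, 2.60, 2.30 and 2.59 CPM in sham, 4.49, 8.53, 6.94, 4.29 and 4.57 CPM at 2 d and 7.39, 3.29, 8.42, 12.7 and 11.7 CPM at 7 d. Every CVST sample exceeded every sham sample. The log2 fold change of Tap1 was 1.36 ± 0.35 (SE, edgeR adjusted p = 0.0454) at 2 d and 1.96 ± 0.36 (adjusted p = 0.0110) at 7 d, and its 7 d call held in all 14 fits without 1 sample. Its 2 d call held in 4 of them and ended without the same samples as that of Psmb8. Tap2 (ENSMUSG00000024339) measured 5.71, 5.33, 5.51 and 6.09 CPM in sham, 7.04 to 12.5 CPM at 2 d, and 10.2, 6.02, 9.91, 12.2 and 11.5 CPM at 7 d. The sham samples of Tap2 were tight, the 2 d samples all lay above them, and CVST 7 d sample 2 lay inside the sham range. Its log2 fold change was 0.71 ± 0.20 (SE, edgeR adjusted p = 0.0586) at 2 d and 0.82 ± 0.20 (adjusted p = 0.0343) at 7 d. The difference between Tap1 and Tap2 was not tested.

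Tapbp (ENSMUSG00000024308), tapasin, bridges the transporter to class I molecules. It measured 29.4, 27.0, 23.9 and 24.0 CPM in sham, 28.2 to 43.2 CPM at 2 d, and 43.1, 27.5, 39.4, 47.7 and 63.3 CPM at 7 d. At both times 4 of 5 CVST samples were above the sham range, and CVST 7 d sample 2 was within it. The log2 fold change was 0.41 ± 0.19 (SE, edgeR adjusted p = 0.216) at 2 d and 0.76 ± 0.19 (adjusted p = 0.0348) at 7 d. The 7 d calls of Tapbp and Tap2 each held in 5 of the 14 fits without 1 sample and ended without any 1 of the sham samples and without CVST 7 d sample 1, 4 or 5, among others. Tapbp shares exon sequence with its neighbour Zbtb22 on the same strand, where the counting could split reads.

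Nlrc5 (ENSMUSG00000074151), the class I transactivator, had the lowest sham level in CPM and the largest fold change against sham of the 10 genes. In sham it measured 0.235, 0.606, 1.00 and 0.593 CPM, from 4, 10, 20 and 11 counts. It measured 1.86, 5.30, 2.62, 2.53 and 1.22 CPM at 2 d and 4.25, 1.39, 3.04, 6.59 and 5.66 CPM at 7 d. All CVST samples were above all sham samples, with CVST 2 d sample 5 and CVST 7 d sample 2 lowest in their groups. The log2 fold change was 2.13 ± 0.53 (SE, edgeR adjusted p = 0.0396) at 2 d and 2.76 ± 0.53 (adjusted p = 0.0136) at 7 d, a 4.38-fold and a 6.76-fold rise. The 2 d call held in 5 of the 14 fits without 1 sample and ended without any 1 of the sham samples, CVST 2 d sample 1, 2, 3 or 4, or CVST 7 d sample 1. The 7 d call held in 12 and ended without sham 2 or 4. The FPKM per CPM of Nlrc5 differed up to 7.92 times between samples, so its deposited FPKM, 0.08 to 0.30 in sham and 0.21 to 3.29 at 7 d, is not used for its fold change. Nlrc5 overlaps on the opposite strand with a long noncoding RNA gene. Summed counts of that gene were 6 in sham, 26 at 2 d and 42 at 7 d, beside 45, 254 and 362 for Nlrc5. Psme1 (with Emc9), Psmb8 and Tap2 also overlap genes on the opposite strand. Without strand, reads of these overlaps cannot be told apart.

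Between 2 d and 7 d none of the 10 genes passed edgeR's test, while 2.80% of all genes did (1.54% higher at 7 d). DESeq2, limma voom and limma on FPKM also called 0 of the 10. At an unadjusted p under 0.05 1 of the 10, Psmb9, differed (0.88 ± 0.39, SE, edgeR adjusted p = 0.209), where 20.9% of all genes tested did. Psmb9, Nlrc5 (0.63 ± 0.43), Tap1 (0.60 ± 0.31), Psmb8 (0.45 ± 0.35), Tapbp, Tap2 and Psme1 had positive values and Psmb10, Psme2 and Erap1 negative ones, with a median of 0.23 against 0.01 over all genes tested. In CVST 2 d and 7 d samples the ranges of all 10 genes overlapped, while 2.28% of all genes were higher at 7 d without overlap. A p that misses the threshold does not show that the times were alike.

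**Figure D4:**
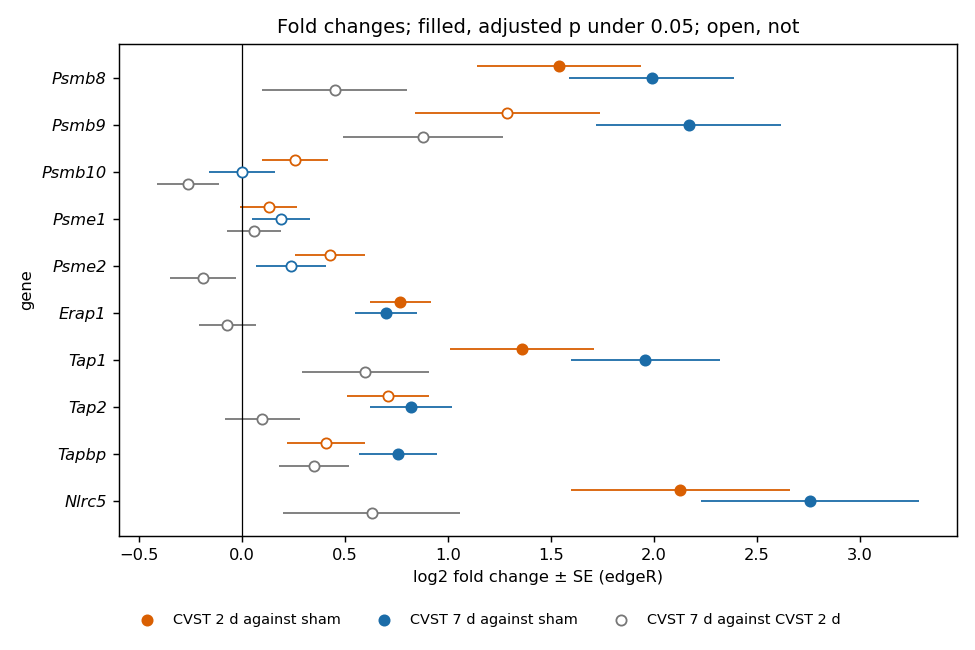
Log2 fold change ± SE (horizontal axis, edgeR) of the 10 genes in the 3 comparisons; filled points have an adjusted p under 0.05. Filled points stand at 2 d for Psmb8, Erap1, Tap1 and Nlrc5, at 7 d for those and Psmb9, Tap2 and Tapbp, and nowhere for 7 d against 2 d.

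By level per length the same 4 genes were highest in all 3 groups, Psme1 and Psmb10 being level at 2 d (35.8 FPKM each), and lower places changed. In sham the mean FPKM ran from Psme1 (33.1), Psmb10 (31.2) and Psme2 (20.1) through Tapbp (11.2) to Erap1 (2.70), Psmb8 (2.60), Tap2 (2.14), Tap1 (0.93), Psmb9 (0.79) and Nlrc5 (0.22). Psme1 and Psmb10, Erap1 and Psmb8, and Tap1 and Psmb9 were neighbours within their spread in sham (SD 0.399 FPKM for Tap1, n = 4). At 7 d these 4 stood in the sham order, at 37.9, 31.6, 26.6 and 19.3 FPKM, Psmb8 came next at 10.5 FPKM, and Nlrc5 was again lowest at 1.59 FPKM. Erap1, next after Tapbp in sham, was at 3.11 FPKM at 7 d, level with Psmb9 and below Tap2 (4.06) and Tap1 (3.80), and the places of Erap1, Psmb9 and Nlrc5 rest on FPKM that do not follow their counts. Distance from the median profile of the 10 genes over the 14 samples (root mean square, log2 units) was least for Tap2 (0.122), Erap1 (0.143) and Tapbp (0.226) and greatest for Nlrc5 (1.38), Psmb9 (0.841) and Psmb8 (0.807). Of the genes outside the group, Irf1, an interferon-induced transcription factor, came closest at 0.117. Pmp22 (0.148), Tln1 (0.171), Rrbp1 (0.173) and Sat1 (0.185) followed, where the median of all other genes was 0.739. Irf1 rose at 7 d (0.82 ± 0.22, adjusted p = 0.0480, edgeR) and measured 0.71 ± 0.22 at 2 d (adjusted p = 0.0828).

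Of the rest of the proteasome no gene passed the test against sham. Among 11 other genes of the 20S core, 18 of the 19S regulatory particle and 8 tested activators, inhibitors and assembly factors, none was called by edgeR at 2 d or 7 d (3, 3 and 1 at 2 d and 1, 1 and 1 at 7 d at an unadjusted p under 0.05). DESeq2 called 0 at 2 d and 1 activator or assembly gene, lower, at 7 d. The voom fit called 1 core and 1 19S gene, higher, at 2 d and 1 activator or assembly gene, lower, at 7 d, and limma on FPKM called 0. At 2 d limma on FPKM had 9 core, 13 19S and 1 activator or assembly gene at an unadjusted p under 0.05, all higher. The median log2 fold changes of these lists were 0.16, 0.16 and 0.03 at 2 d and -0.08, -0.09 and -0.07 at 7 d. For 7 d against 2 d the medians of core and 19S genes were -0.27 and -0.23, and edgeR called 1 gene of each, lower, and DESeq2 6 and 10. At an unadjusted p under 0.05, 9 of 11 and 15 of 18 were lower at 7 d, beside 10.6% of all genes tested. The core subunit Psmb4 fell by 0.34 (adjusted p = 0.0318, edgeR) and the 19S ATPase Psmc4 fell by 0.32 (adjusted p = 0.0462). Pomp, the chaperone of proteasome assembly, measured 0.09 ± 0.11 and -0.07 ± 0.11 (SE) against sham. Of 7 other peptide loading proteins, among them Tapbpl, calreticulin (Calr), calnexin (Canx) and Pdia3, and of 7 other peptidases, none passed edgeR's test in any comparison, with medians of 0.12 and 0.13 at 2 d and -0.02 and 0.06 at 7 d. At an unadjusted p under 0.05 there were 1 and 2 at 2 d, 0 and 0 at 7 d, and 2 and 1 between the times. DESeq2 called 0 against sham and 1 of each list, lower, between the times, and the voom fit called 1 of each at 2 d and 2 loading proteins, lower, between the times. Tapbpl, the relative of tapasin, measured 0.11 ± 0.13 at 2 d and 0.21 ± 0.13 at 7 d.

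Of 9 tested genes of class I heavy chains and beta-2 microglobulin, the molecules that receive the peptides, edgeR called 0 at 2 d (median 0.73; 4 at an unadjusted p under 0.05; DESeq2 and voom called 3 each, limma on FPKM 0). At 7 d 4 rose (median 1.72), H2-Q4 by 1.72, B2m by 1.67 ± 0.28, H2-K1 by 1.90 ± 0.30 and H2-D1 by 2.03 ± 0.34 (SE, edgeR adjusted p = 0.00918, 0.00747 and 0.00916). All 9 had an edgeR unadjusted p under 0.05 at 7 d, and DESeq2 called 8, voom 5 and limma on FPKM 6. For 7 d against 2 d the median was 0.94 and edgeR called 0, with 7 higher at an unadjusted p under 0.05. There DESeq2 called 5, higher, and voom and limma on FPKM called 0. Of 12 tested regulators of the pathway, edgeR called 2 at 2 d and 4 at 7 d, all higher, and the others were not called. The log2 fold changes of the 12 spanned -0.19 to 1.13 at 2 d (median 0.38) and -0.14 to 2.05 at 7 d (median 0.43). Among those called, Irf9, a part of interferon signalling, rose at 2 d (1.11 ± 0.17, SE, edgeR adjusted p = 0.00687). Irf9 (0.92 ± 0.17), Irf1 and the myeloid factor Irf8 (2.05 ± 0.44) rose at 7 d (SE, edgeR adjusted p = 0.0117 to 0.0480). Ciita, the class II transactivator and a relative of Nlrc5, measured 0.17 ± 0.51 at 2 d and 1.26 ± 0.49 at 7 d (adjusted p = 0.875 and 0.167). Of 6 interferon and receptor genes 4 were high enough to test, and of these Ifngr1, a chain of the interferon gamma receptor, rose at 7 d (0.89 ± 0.20, adjusted p = 0.0265).

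**Figure D5:**
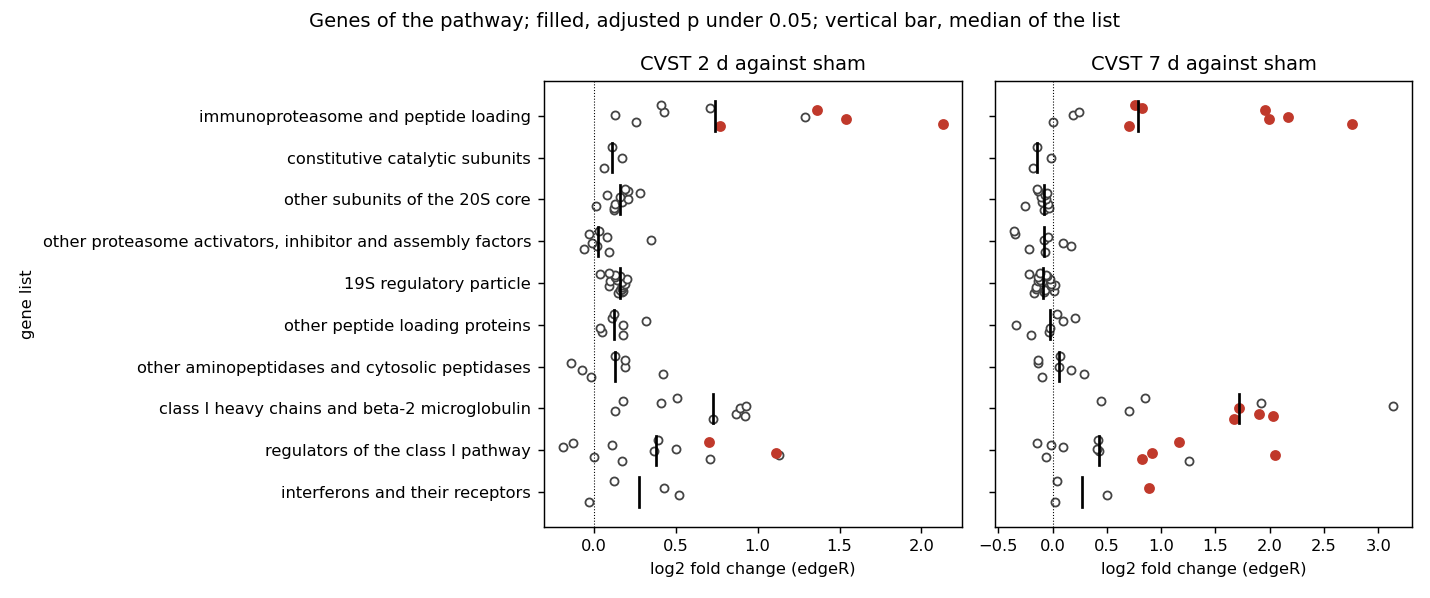
Log2 fold change (horizontal axis, edgeR) of every tested gene in 10 lists of the pathway, at 2 d and 7 d against sham; red points have an adjusted p under 0.05 and bars are medians. Red points stand in the first list, in the class I, regulator and interferon lists, and in none of the lists of other proteasome subunits.

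Levels of cell type markers are given beside these genes. Fewer cells of a type and less RNA per cell cannot be told apart in bulk tissue. The summed level of 12 microglial markers was 343 to 398 CPM in sham. It was 319.9 to 864 CPM at 2 d and 461 to 1349 CPM at 7 d. By edgeR's test Fcrls and Olfml3 were higher at 2 d, and Cx3cr1, Csf1r, Trem2 and Aif1 were among those higher at 7 d. The markers did not all rise: of the 12, 7 had an unadjusted p under 0.05 at 2 d by edgeR, 6 of them higher. Mean P2ry12 was 38.1 CPM in sham, 26.1 CPM at 2 d and 52.1 CPM at 7 d. The sum of 13 markers of monocytes, macrophages and dendritic cells was 19.6 to 26.6 CPM in sham, 35.4 to 182 CPM at 2 d and 28.1 to 1875 CPM at 7 d. Lyz2 carried most of this sum in CVST, with means of 6.79 CPM in sham, 50.3 CPM at 2 d and 564 CPM at 7 d. The mean sums of the list were 21.6, 79.1 and 611 CPM. The median log2 fold change of its tested markers was 1.60 at 2 d, 2.21 at 7 d and 0.20 for 7 d against 2 d. Of the 10 tested, none passed edgeR's test at 2 d (6 at an unadjusted p under 0.05; DESeq2 called 5, voom 3, limma on FPKM 0), and Lyz2, Mrc1, Ms4a7 and Itgax rose at 7 d. CVST 2 d sample 5 and CVST 7 d sample 2 had the lowest sums of both lists in their groups. The 12 T and NK cell markers summed to 4.50 to 18.2 CPM in sham, 6.27 to 16.2 CPM at 2 d and 6.91 to 23.1 CPM at 7 d. Of these, 3 could be tested and none passed by edgeR, also at an unadjusted p under 0.05, or by DESeq2, voom or limma on FPKM, while Cd3d, Nkg7, Gzmb, Prf1 and Klrb1c were at 0 in sham and Prf1 also at 7 d. Neutrophil markers were low throughout, at sums of 0.242 to 2.76 CPM in sham, 1.48 to 6.98 CPM at 2 d and 0 to 0.996 CPM at 7 d, with Ly6g and Camp at 0 at 7 d. Of the 2 that could be tested, edgeR and limma on FPKM called 0 in every comparison. At 2 d DESeq2 called 1 and voom 2, higher than sham (edgeR median 2.04). For 7 d against 2 d DESeq2 and voom each called 2, lower (edgeR median -2.88). Endothelial markers summed to 187 to 264 CPM in sham, 225 to 359 CPM at 2 d and 203 to 282 CPM at 7 d. At 2 d edgeR called Pecam1 and Cdh5 higher, and 4 of the 6 had an unadjusted p under 0.05, 3 of them higher. The mean of Slco1a4 was 56.5 CPM in sham, 43.4 CPM at 2 d and 67.3 CPM at 7 d. Flt1 had means of 73.3 CPM in sham and 74.5 CPM at 2 d. Astrocyte markers summed to 929 to 1094 CPM in sham, 1376 to 2532 CPM at 2 d and 1650 to 3817 CPM at 7 d. Gfap, the intermediate filament of reactive astrocytes, carried much of this sum, with means of 157 CPM in sham, 1324 CPM at 2 d and 1064 CPM at 7 d, while at 2 d Gja1 measured -0.48 ± 0.18 and Slc1a3 -0.32 ± 0.14 on the log2 scale (SE, edgeR adjusted p = 0.135 and 0.211). Of the 5 astrocyte markers edgeR and DESeq2 each called 2 at 2 d, higher, and limma on FPKM 1, higher. The voom fit called 4 at 2 d, only 2 of them higher. For 7 d against 2 d edgeR called Slc1a3 and Gja1, higher. The markers of cortical excitatory neurons, which check the labelled tissue, were abundant in all samples (3025 to 4798 CPM), and edgeR, DESeq2 and limma on FPKM called none of the 7 in any comparison (voom 1 at 2 d; 1 at an unadjusted p under 0.05 at 2 d by edgeR). The part of these cell types in the changes of the 10 genes was not tested.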

How the data were processed

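Cortex RNA of 14 mouse samples was sequenced from NEBNext Ultra libraries, per the labels' protocols. The authors deposited whole-number read counts per gene and FPKM values (fragments scaled to transcript length and library size). Per the submitters' processing notes, fastp, HISAT2 and DESeq2 1.16.1 were used with build mm39; the counting tool, annotation and strand setting were not found in those notes or labels. Of 55894 rows, 535 had no Ensembl gene (0.203% to 0.278% of counts) and were left out.

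One edgeR model (4.0.16, under R 4.3.3) held the 3 group means of the 14 samples, after filterByExpr and TMM scaling; genes were called at an adjusted p under 0.05 (quasi-likelihood test, Benjamini-Hochberg over 16918 genes). The standard error is the size of the log2 fold change over the square root of F. Ratios of deposited FPKM were compared by a 2-sided exact permutation test (scipy 1.17.1). Alternatives used DESeq2 1.42.0, limma 3.58.1, log2 of FPKM plus 0.1, other scalings, no filter, a replicate block, and samples left out. The biological coefficient of variation was 0.218, and replicates differed by more than counting noise (lowest chi-square per degree of freedom 8.01).

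Coordinates are those of RefSeq's promoter windows on GRCm38.p6; gene positions on mm39 were not used here. The rule for named genes took all 10 genes, Psmb5, Psmb6, Psmb7 and 10 related genes, the 3 lowest p of each pathway list, the top and called markers of each cell type, and the 5 genes nearest to the median profile; Cast was added after its values were seen, for its overlap. The genes and lists were chosen with earlier results of these data known. Some genes of these lists are not reported here.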

Additional observations from a re-analysis of the deposited data

How the results depend on the processing

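Calls were sensitive to the samples and the test more than directions were. Against sham, 4 genes of the group were called at 2 d and 7 at 7 d; with limma on FPKM these were 0 and 2, and over the fits that left out 1 sample 0 to 6 and 1 to 7. No gene of the group was called at 2 d without sham 2, 3 or 4, 1 without sham 1, any of CVST 2 d samples 1 to 4 or CVST 7 d sample 1, and 2 without CVST 7 d sample 3; at 7 d there were 1, 2 and 1 without sham 2, 3 and 4, and 4 without CVST 7 d sample 4. These fits have fewer samples. The labels do not say whether the replicate numbers pair the samples. Same-numbered samples' deviations correlated at -0.438 to 0.28, with 2 of 13 pairs over 0.1, which cannot settle it. With the replicate block 1 gene of the group was called at 2 d and 0 at 7 d, and 315, 81 and 91 of all genes in the 3 comparisons. All genes called were 669 at 2 d, 752 at 7 d and 473 for 7 d against 2 d. They became 1500, 1387 and 1278 with DESeq2, and 415, 413 and 239 with limma on FPKM. With voom they were 2616 (2 d) and 1237 (7 d against 2 d), and with only the 2 groups 81 (7 d against 2 d). Without the 2 CVST samples that lay beside sham 1 they were 2146, 1324 and 913. Leaving out 1 sample gave 76 to 1967, 119 to 1035 and 173 to 1309. The cause was not tested. Reversed values were close to 0: Psmb10 at 7 d (-0.0812 to 0.117 over fits without 1 sample), Tap2 for 7 d against 2 d with voom (-0.0393), Erap1 for 7 d against 2 d (-0.159 to 0.0168 without 1 sample, positive without CVST 7 d sample 2), and Psmb10 over Psmb7 at 2 d (-0.0595 to 0.207 without 1 sample) and for 7 d against 2 d (-0.0622 to 0.151; -0.00176 from CPM). Leaving out 1 sample, the log2 difference of Psmb8 over Psmb5 spanned 1.18 to 1.49 at 2 d, 1.71 to 2.33 at 7 d and 0.363 to 0.982 for 7 d against 2 d, and that of Psmb9 over Psmb6 0.942 to 1.3, 1.43 to 2.21 and 0.342 to 1.12. Depth limits genes of few counts: Nlrc5 had 4 to 20 and Psmb9 7 to 19 counts per sham sample.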

Other observations

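The 2 deposited tables do not carry the same information for every gene of the group. Across samples, FPKM over CPM should be nearly constant for a gene of fixed length. It was so for Psme1 (highest over lowest sample 1.10), Tapbp (1.11) and Psmb5, Psmb6 and Psmb7 (1.09 each). For Nlrc5 it spanned 0.151 to 1.19 (7.92 times), for Erap1 0.184 to 0.389 (2.12 times) and for Psmb9 0.704 to 1.44 (2.04 times). The other genes lay between, at 1.63 times for Tap1, 1.53 for Psme2, 1.43 for Psmb10, 1.30 for Psmb8 and 1.21 for Tap2. In CVST 7 d sample 2 the FPKM of Nlrc5 was 0.21, inside the sham range of 0.08 to 0.30, while its CPM was 1.39, above the sham range of 0.235 to 1.00.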
